A study of Mus musculus with 6 samples.

Results

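The transcript levels of 9 genes were followed in mouse T cells grown together with ovarian cancer cells. They were the NR4A genes Nr4a1, Nr4a2 and Nr4a3, the NFAT genes Nfatc1, Nfatc2 and Nfatc3, the TOX genes Tox and Tox2, and Rcan1. The genes were taken by symbol from the 54532 genes of the deposited table, and 8 of the 9 were among the 15874 genes tested. T cells were isolated from the spleens of C57BL/6 mice aged 6 to 8 weeks with a pan T-cell kit, grown with IL-2 (10 ng/mL) and activated on anti-CD3/CD28 beads for 72 h. Co-culture followed with the mouse ovarian cancer line ID8, and poly-A RNA of the collected T cells was sequenced. The ID8 cells of 3 libraries had first been exposed to cisplatin, a platinum drug that crosslinks DNA, at a labelled 40 µM, and those of 3 control libraries to PBS, the buffer alone. The sources do not state how long the co-culture lasted, whether the ID8 cells were removed before RNA extraction, or whether the 3 libraries of a group came from separate mice or cultures, so p-values measure the spread between these libraries. The question was how the transcripts of these factors differed between T cells that had met cisplatin-pretreated and buffer-treated tumour cells.

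NFAT proteins are transcription factors held in the cytoplasm by phosphorylation. When the T-cell receptor raises intracellular calcium, the phosphatase calcineurin removes the phosphates and NFAT enters the nucleus, where with AP-1 (Fos and Jun proteins) it drives cytokine and activation genes. NFAT acting without AP-1 is linked to anergy and exhaustion, the states in which T cells lose function after lasting stimulation. The NR4A genes encode nuclear receptors that are induced rapidly by receptor stimulation, and TOX and TOX2 are HMG-box proteins that support the exhausted state downstream of NFAT. Rcan1 encodes an inhibitor of calcineurin that is itself induced through NFAT. NFAT and TOX activity depend on the location and amount of protein, which transcript levels do not measure.

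The start regions of 5 of these genes are shown, with letters marked that calcium and receptor signals are known to act through. GGAAA is the core bound by NFAT, TGANTCA is the site of AP-1, TGACGTCA is the cAMP response element bound by CREB proteins, TGACG is its core, and AAAGGTCA is the site bound by a single NR4A protein. RefSeq (GRCm38.p6) gave 14 start windows for 7 of the genes, and the 250 bases before each start were searched on both strands. TGACG was added to the motifs after the sequences had been seen. Each sequence runs 5′ to 3′ along the gene's strand, and capitals mark the motifs on either strand, so that TTTCC is GGAAA and CGTCA is TGACG on the opposite strand.
Nr4a1, chr15:101266596-101266845, plus strand: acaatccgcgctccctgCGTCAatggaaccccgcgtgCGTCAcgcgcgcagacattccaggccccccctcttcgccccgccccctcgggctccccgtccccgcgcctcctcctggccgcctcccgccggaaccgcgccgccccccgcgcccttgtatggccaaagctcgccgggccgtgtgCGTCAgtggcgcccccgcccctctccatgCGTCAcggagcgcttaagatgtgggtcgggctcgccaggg
Nr4a2, chr2:57124004-57124253, minus strand: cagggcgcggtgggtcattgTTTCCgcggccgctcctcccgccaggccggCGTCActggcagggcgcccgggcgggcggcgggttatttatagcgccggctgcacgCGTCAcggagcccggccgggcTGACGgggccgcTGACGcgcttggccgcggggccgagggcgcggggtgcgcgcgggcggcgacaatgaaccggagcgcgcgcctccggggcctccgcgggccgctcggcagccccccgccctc
Nr4a3, chr4:48045055-48045152, plus strand: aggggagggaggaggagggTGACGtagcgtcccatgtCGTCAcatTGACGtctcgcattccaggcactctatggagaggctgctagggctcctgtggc
Rcan1, chr16:92400079-92400328, minus strand: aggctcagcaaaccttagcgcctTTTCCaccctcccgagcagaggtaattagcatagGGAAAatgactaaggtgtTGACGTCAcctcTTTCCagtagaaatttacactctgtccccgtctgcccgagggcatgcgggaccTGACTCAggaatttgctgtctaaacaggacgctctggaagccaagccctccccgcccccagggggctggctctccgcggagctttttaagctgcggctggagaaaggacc
Nfatc2, chr2:168601658-168601907, minus strand: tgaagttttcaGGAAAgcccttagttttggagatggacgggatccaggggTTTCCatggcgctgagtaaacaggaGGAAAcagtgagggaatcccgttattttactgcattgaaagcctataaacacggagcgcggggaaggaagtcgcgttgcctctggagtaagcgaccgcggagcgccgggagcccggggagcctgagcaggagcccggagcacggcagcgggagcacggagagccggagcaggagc
The Nr4a1 window lies in an intron of a longer Nr4a1 transcript, and the Rcan1 window in an intron of the long Rcan1 transcripts, before the first exon of the short one. For Nr4a3 only the 98 bases outside an annotated exon are printed.

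All 3 NR4A genes held 4 TGACG matches in the 250 bases. Counted to the first base of the match, in Nr4a1 they lay 233, 213, 69 and 40 bases before the start, in Nr4a2 at 200, 144, 123 and 111 bases, and in Nr4a3 at 231, 213, 205 and 147 bases, the last of these in the part not printed. Of 32851 windows of the same length, 17.8% held TGACG at least once and 0.137% at least 4 times. Both the motif and the count of 4 were taken from these windows, so the shares are no test of rarity. TGACGTCA, which was set beforehand, stood in none of the 3 NR4A windows. The Rcan1 intronic window held 3 GGAAA matches, 1 TGANTCA, 1 TGACGTCA and 2 TGACG matches, both inside the TGACGTCA. The other Rcan1 window, before the upstream start, held none of these motifs. The Nfatc2 window shown held 3 GGAAA matches, which 6.39% of windows reached, while 55.6% held at least 1. The other Nfatc2 window held 1 GGAAA match. The windows of Tox2 and Nfatc3, which are not shown, held at most 1 match of any motif each. TGANTCA stood in 6.75% of all windows, TGACGTCA in 1.55% and AAAGGTCA in 1.34%, and AAAGGTCA in none of the 14. These matches describe the letters of the windows and are not evidence of binding.

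The 3 NFAT genes were the most highly expressed of the 9 and each was higher with cisplatin-pretreated ID8 cells in the values as deposited, while relative to T-cell markers Nfatc2 and Nfatc3 lay slightly below 0 (values given further on). Levels are FPKM, reads normalised for the length of the gene and for a factor of each library that was close to its depth but not equal to it. Nfatc3 (ENSMUSG00000031902, chr8:106058840-106130537, plus strand), an NFAT gene expressed in resting and activated T cells, stood at 20.02, 20.2 and 20.2 FPKM in PBS libraries 1 to 3 and at 27.4, 26.9 and 28.0 FPKM in the cisplatin libraries. The PBS libraries lay within a narrow band, and every cisplatin library was above it. The mean was 20.1 ± 0.107 FPKM (SD, n = 3) with PBS and 27.5 ± 0.558 FPKM with cisplatin, a log2 fold change of 0.44 (SE 0.03) on the log2(FPKM + 0.1) scale, and the adjusted p over all tested genes from limma was 3.3e-05.

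Nfatc1 (ENSMUSG00000033016, chr18:80606205-80713071, minus strand), which NFAT itself can induce in stimulated lymphocytes, stood at 17.0, 16.6 and 17.5 FPKM in the PBS libraries and at 25.8, 25.8 and 26.9 FPKM in the cisplatin libraries. Its mean rose from 17.0 ± 0.486 to 26.2 ± 0.626 FPKM (SD, n = 3), a log2 fold change of 0.62 (SE 0.04) with a limma adjusted p of 1.6e-05. The groups did not overlap, and Nfatc1 had the largest log2 rise of the 3 NFAT genes. Nfatc2 (ENSMUSG00000027544, chr2:168476410-168601657, minus strand), the NFAT gene most closely tied to anergy, stood at 6.69, 7.01 and 7.01 FPKM with PBS and at 9.63, 9.51 and 9.63 FPKM with cisplatin. Its mean rose from 6.90 ± 0.185 to 9.59 ± 0.0695 FPKM (SD, n = 3), a log2 fold change of 0.47 (SE 0.04) with a limma adjusted p of 0.00013. The summed level of the 3 genes was 44.0 ± 0.578 FPKM with PBS and 63.2 ± 1.20 FPKM with cisplatin, 1.44 times as high. The 2 groups of sums did not overlap, and the two-sided exact permutation p was 0.1, the smallest that 3 against 3 libraries can give.

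The NR4A genes stood lower than the NFAT genes and did not move alike. Relative to T-cell markers Nr4a1 and Nr4a2 fell, as did 62.2% of all tested genes, whose median was then -0.48. Nr4a1 (ENSMUSG00000023034, chr15:101254269-101274795, plus strand), whose product is also called Nur77 and is used as a reporter of receptor signalling, stood at 4.42, 4.19 and 3.91 FPKM with PBS and at 4.41, 4.19 and 3.86 FPKM with cisplatin. The groups covered almost the same range. The means were 4.17 ± 0.257 and 4.15 ± 0.277 FPKM (SD, n = 3), and the log2 difference of -0.01 (SE 0.08) had a limma adjusted p of 0.94. Nr4a2 (ENSMUSG00000026826, chr2:57106830-57124003, minus strand), which encodes Nurr1, stood at 2.09, 2.13 and 2.04 FPKM with PBS and at 2.35, 2.37 and 2.30 FPKM with cisplatin. All 3 cisplatin libraries lay above all 3 PBS libraries, but the log2 difference of 0.16 (SE 0.09) between 2.09 ± 0.0448 and 2.34 ± 0.0352 FPKM did not pass, with a limma adjusted p of 0.16. Nr4a2 did pass when the prior variance was not allowed to follow expression (0.16, adjusted p 0.021) and after quantile normalization (0.36, adjusted p 0.010).

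Nr4a3 (ENSMUSG00000028341, chr4:48045153-48086447, plus strand), which encodes NOR1, was the NR4A gene that rose as deposited, and it did not pass relative to T-cell markers (0.16, limma adjusted p 0.24). It stood at 1.34, 1.42 and 1.28 FPKM with PBS and at 2.11, 2.17 and 2.24 FPKM with cisplatin, and the groups lay well apart. The mean went from 1.34 ± 0.0683 to 2.17 ± 0.0630 FPKM (SD, n = 3), 1.62 times as high, with a log2 fold change of 0.66 (SE 0.11) and a limma adjusted p of 0.0019. Behind these levels were 235 to 254 reads per PBS library and 409 to 434 per cisplatin library. The summed NR4A level was 7.60 ± 0.331 FPKM with PBS and 8.67 ± 0.243 FPKM with cisplatin, 1.14 times as high with an exact permutation p of 0.1.

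Both TOX genes were low, and both were higher with cisplatin-pretreated ID8 cells as deposited, although relative to T-cell markers Tox did not pass (0.29, limma adjusted p 0.085). Tox2 was too low to be tested relative to T-cell markers. Tox (ENSMUSG00000041272, chr4:6686353-6991557, minus strand), a main factor of the exhaustion programme, stood at 1.26, 1.27 and 1.18 FPKM with PBS and at 2.35, 1.96 and 2.32 FPKM with cisplatin. Its mean rose from 1.24 ± 0.0497 to 2.21 ± 0.216 FPKM (SD, n = 3), and its log2 fold change of 0.79 (SE 0.12, limma adjusted p 0.0016) was the largest of the 8 tested genes. The reads on Tox numbered 275 to 289 per PBS library and 495 to 579 per cisplatin library.

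Tox2 (ENSMUSG00000074607, chr2:163203125-163324170, plus strand) stood at 0.294, 0.216 and 0.0767 FPKM with PBS and at 0.690, 0.816 and 0.680 FPKM with cisplatin. The groups did not overlap, and the means of 0.195 ± 0.110 and 0.729 ± 0.0757 FPKM (SD, n = 3) differed 3.73-fold. Its mean over the 6 libraries was under the minimum of 0.5 FPKM, so it was outside the main test. Without that minimum, where 33456 genes were tested, 12.0% rose and 2.26% rose at least 2-fold, limma gave Tox2 a log2 fold change of 1.56 (SE 0.39) and an adjusted p of 0.026. The value rests on 30, 22 and 8 reads in the PBS libraries and 76, 92 and 75 in the cisplatin libraries, and PBS library 3 was the lowest. With voom, limma's method for read counts, on the rebuilt reads the log2 fold change was 2.15 (SE 0.43, adjusted p 0.00015). Tox2 reached the minimum when PBS library 3 or PBS library 2 was left out, at log2 fold changes of 1.23 (limma adjusted p 0.028) and 1.65 (0.036).

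Rcan1 (ENSMUSG00000022951, chr16:92391953-92470867, minus strand) was the gene that fell. It stood at 5.17, 5.92 and 6.14 FPKM with PBS and at 4.75, 4.64 and 4.45 FPKM with cisplatin, and the groups did not overlap. The mean went from 5.74 ± 0.507 to 4.61 ± 0.150 FPKM (SD, n = 3), a log2 fold change of -0.31 (SE 0.08) with a limma adjusted p of 0.015. Rcan1 did not pass after quantile normalization (log2 fold change -0.13, adjusted p 0.24), with voom on the rebuilt reads (-0.23, adjusted p 0.062) or without PBS library 2 (-0.28, adjusted p 0.051), although its direction was the same in each.

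**Figure D1:**
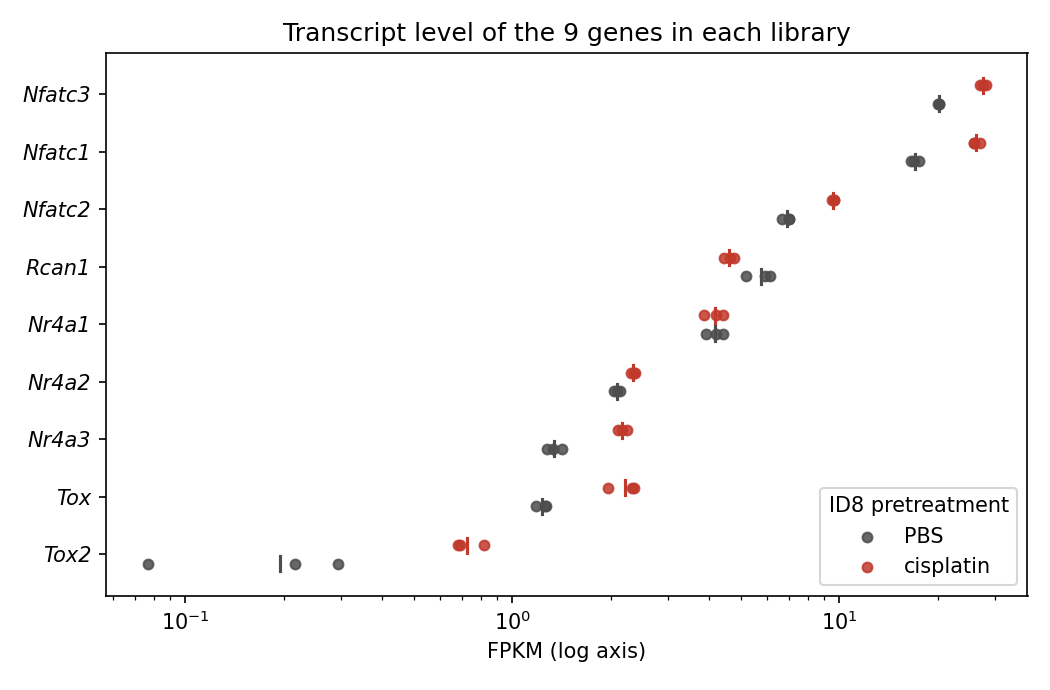
Level of each of the 9 genes in FPKM (log axis), with a point per library and a short vertical line at the group mean of 3 libraries (grey for PBS, red for cisplatin). The cisplatin points lie to the right of all PBS points for 7 genes, to the left for Rcan1 and among them for Nr4a1.

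Of the 8 tested genes, 5 rose (27.5% of all tested genes did), 1 fell (29.0% of all tested genes) and 2 did not pass. In all, 56.5% of the tested genes passed in either direction, so a passing gene was common in this comparison. None of the 8 passed and also reached a 2-fold change, which 16.9% of all tested genes did (4.11% higher and 12.8% lower). The groups did not overlap for 7 of the 8, against 64.2% of all tested genes. In 6 of them cisplatin was higher (31.9% of all tested genes) and in 1 lower (32.3%). The median log2 fold change was 0.46 over the 8 genes and 0.03 over all tested genes.

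The order of the genes by level was fixed in the PBS libraries, from Nfatc3 through Nfatc1, Nfatc2, Rcan1, Nr4a1, Nr4a2, Nr4a3 and Tox to Tox2, and no neighbours in that order overlapped between their lowest and highest libraries. Nfatc3 ranked at percentile 81.4 among the tested genes in the PBS libraries, Nr4a1 at 41.9 and Tox at 17.9. The ratio between neighbours was largest from Tox to Tox2, at 6.32, and smallest from Nr4a3 to Tox, at 1.09. In the cisplatin libraries Nfatc3 and Nfatc1 overlapped and differed 1.05-fold in mean. Tox, which ranked between Nr4a2 and Nr4a3, overlapped with each of them, whereas Nr4a2 lay above Nr4a3 without overlap. Nfatc1 rose from percentile 77.8 to 87.1, Nfatc2 from 54.3 to 65.7, and Nr4a3 from 19.4 to 31.0, while Rcan1 went from 49.7 to 47.3.

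The genes of a family were then compared within each library, since such a ratio does not depend on how libraries are scaled to each other. Nr4a3 gained on both other NR4A genes. It made up 17.0%, 18.3% and 17.7% of the summed NR4A level in the PBS libraries and 23.8%, 24.8% and 26.6% in the cisplatin libraries. The share of Nr4a1 was 56.3%, 54.2% and 54.1% with PBS and 49.7%, 48.0% and 46.0% with cisplatin, and that of Nr4a2 was 27.5 ± 0.781% and 27.0 ± 0.474% (SD, n = 3) with groups that overlapped. Expressed as log2 ratios, Nr4a1 over Nr4a3 went from 1.57 ± 0.0802 to 0.90 ± 0.135, a change of -0.66, and Nr4a2 over Nr4a3 changed by -0.50. Nr4a1 over Nr4a2 changed by -0.17, also without overlap.

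Among the NFAT genes the shift was smaller and was towards Nfatc1. Its share of the summed NFAT level was 38.8%, 37.8% and 39.2% with PBS and 41.1%, 41.5% and 41.7% with cisplatin. The share of Nfatc3 went from 45.7 ± 0.530% to 43.4 ± 0.186% (SD, n = 3). The log2 ratio of Nfatc1 to Nfatc2 changed by 0.15 and that to Nfatc3 by 0.18, both without overlap, while Nfatc2 over Nfatc3 changed by 0.03 with overlapping groups (exact permutation p = 0.4). Rcan1 over Nfatc1, a calcineurin inhibitor set against an NFAT gene, changed more than any ratio within the NR4A or NFAT genes. It was -1.694, -1.467 and -1.499 on the log2 scale in the PBS libraries and -2.42, -2.45 and -2.57 in the cisplatin libraries, a change of -0.93. Tox over Tox2 changed by -0.77, but this ratio varied with the few Tox2 reads (SD 0.546 among PBS libraries) and lay between -0.47 and -1.01 with any 1 library left out. It also depended on the pseudocount, at -0.01 with a pseudocount of 1 (adjusted p 0.8, exact permutation test) and -1.19 with 0.01. At the pseudocount of 0.1, 7 of the 8 ratios did not overlap between groups, each with an exact permutation p of 0.1 (0.11 after Benjamini-Hochberg adjustment over the 8), and no ratio could have passed with 3 against 3 libraries. Of single tested genes 64.2% did not overlap, and the share among ratios of other gene pairs was not determined.

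**Figure D2:**
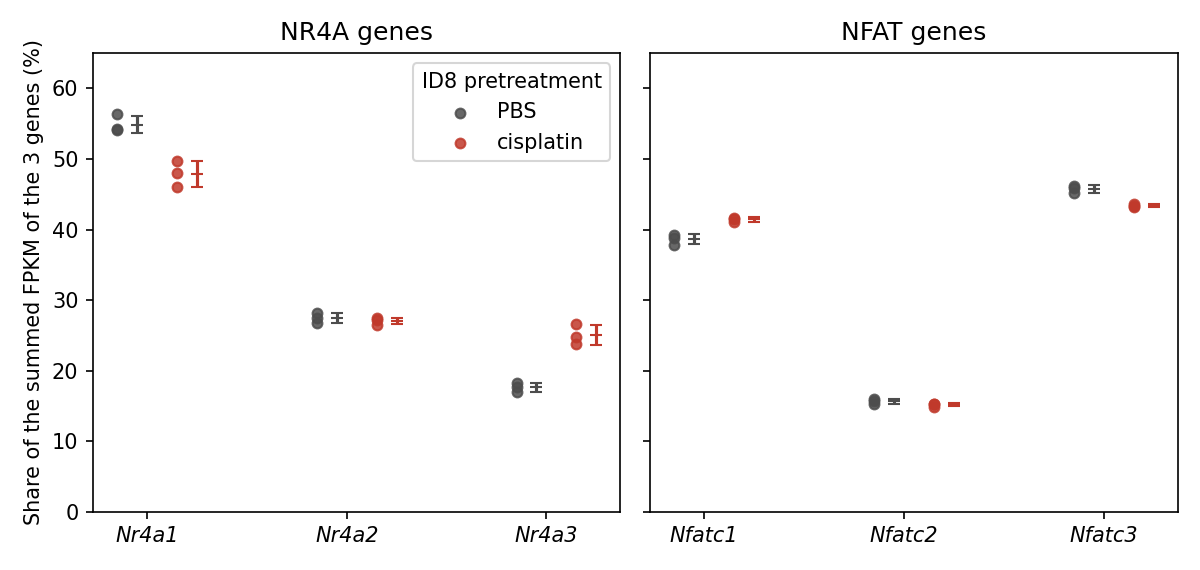
Share of each gene in the summed FPKM of its family (percent, axis from 0), with a point per library and bars for the mean ± SD of 3 libraries (grey for PBS, red for cisplatin). Nr4a3 went from 17.7% to 25.1% of the NR4A sum and Nr4a1 from 54.9% to 47.9%, while the NFAT shares moved by 2.81 percentage points or less.

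The libraries held RNA of other cells besides T cells, and its amount differed between the groups. Summed over 26 ID8 tumour-cell markers, the level was 1881 to 1971 FPKM in the PBS libraries and 284 to 295 FPKM in the cisplatin libraries. All 22 tested ID8 markers fell, with a median log2 fold change of -2.50, and Krt19, a keratin, went from 646 ± 18.1 to 52.9 ± 1.46 FPKM (SD, n = 3). The 24 T-cell markers were all expressed and summed to 1740 to 1861 FPKM with PBS and 2737 to 2816 FPKM with cisplatin. Of these, 23 rose, with a median log2 fold change of 0.58 over the list, and Trac, the constant region of the T-cell receptor alpha chain, went from 138 ± 5.84 to 249 ± 5.74 FPKM. Themis, named after its value was seen, was the 1 that fell, by 0.60 on the log2 scale.

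Other blood-cell markers were present as well. The 12 B-cell markers summed to 3069 to 3290 FPKM with PBS and 6770 to 6831 FPKM with cisplatin. Of these 10 rose, 1 fell and 1 did not pass. Ighm, the heavy chain of IgM, went from 1433 ± 38.0 to 3221 ± 46.7 FPKM. The fall, named after its value was seen, was Fcer2a (-1.06, limma adjusted p 0.0042). Of 16 myeloid markers 12 were tested, 9 rose and 2 fell, and their sum was 150 to 156 FPKM with PBS and 202 to 230 FPKM with cisplatin. The NK-cell markers summed to 8.56 to 9.33 FPKM and 10.2 to 12.1 FPKM, and 0 of the 4 tested passed in limma (1 at an unadjusted p under 0.05), with adjusted p-values from 0.053 to 0.47, while 3 NK-cell markers passed with voom on the rebuilt reads. Of 6 dendritic-cell markers, which summed to 6.49 to 6.91 FPKM and 6.89 to 7.06 FPKM, 3 were tested, 2 rose and 1 fell. No marker of any of these lists was at 0 in every library. NFAT, NR4A and Rcan1 transcripts are made by several of these cell types, fewer cells of a type and less RNA per cell cannot be told apart in such samples, and the part of the cell mixture in the changes of the 9 genes and of the genes around them was not tested.

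Scaling to the T cells changed the calls. When each library was centred on the mean of the 24 T-cell markers, the median over all tested genes moved from 0.03 to -0.48, and 0 of the 8 genes rose in limma (1 at an unadjusted p under 0.05) while 3 fell. Under that scaling 5.69% of all tested genes rose and 62.2% fell, so the 3 falls were no larger a share than among all genes. The centring did not make the other cells equal. Of 12 tested B-cell markers 6 still rose and 3 fell, and of 12 tested myeloid markers 7 rose and 3 fell. Nfatc1 was then at 0.10 (SE 0.04, limma adjusted p 0.063), Nfatc2 at -0.05 (adjusted p 0.37), Nfatc3 at -0.08 (adjusted p 0.094), Nr4a3 at 0.16 (adjusted p 0.24) and Tox at 0.29 (SE 0.13, adjusted p 0.085) on the log2 scale. Relative to the T-cell markers, the genes that had risen were therefore within 0.29 of no change, and the small values of Nfatc2 and Nfatc3 had the opposite sign. Nr4a1 (-0.52, adjusted p 0.0019), Nr4a2 (-0.34, adjusted p 0.012) and Rcan1 (-0.82, adjusted p 6.4e-05) fell. Set against the median of all tested genes, which such a centring moves along with every gene, Tox lay 0.76 above the median, Nr4a3 0.63 and Nfatc1 0.59, and Rcan1 lay at -0.34.

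**Figure D3:**
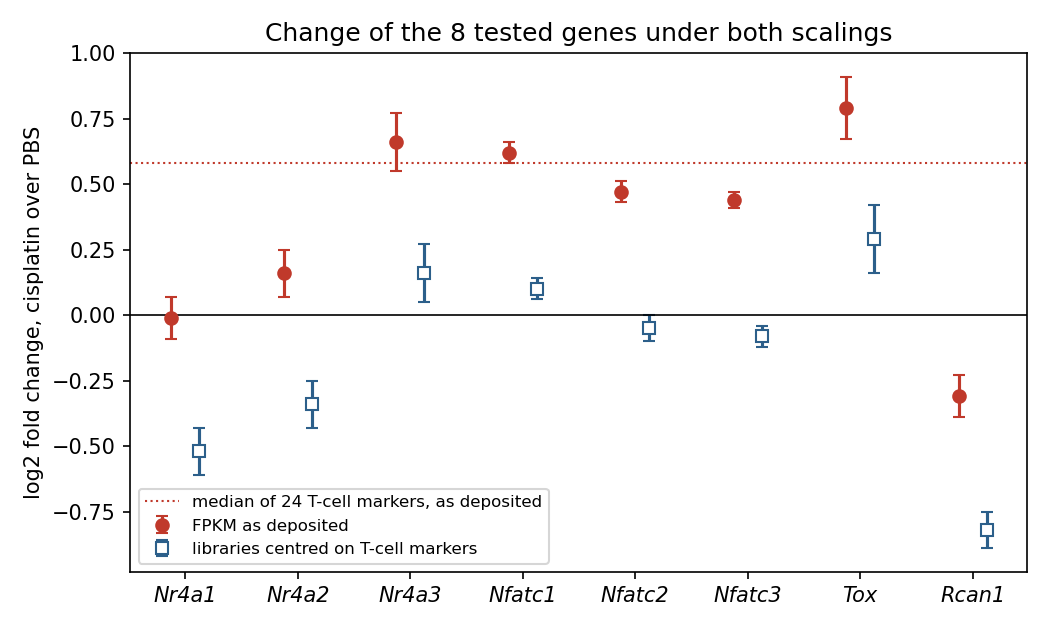
Log2 fold change (cisplatin over PBS, bars ± SE) of the 8 tested genes, from FPKM as deposited (red circles) and after centring each library on the T-cell markers (blue squares), with the median change of the T-cell markers as a dotted line at 0.58. As deposited, 5 genes passed as higher. After centring none did, and Nr4a2, Nfatc2 and Nfatc3 lay below 0. Nr4a1, Nr4a2 and Rcan1 then passed as lower, as did 62.2% of all tested genes.

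Genes that act with these factors were grouped in 8 lists of 128 genes, of which 121 were tested, 68 rose and 33 fell. For each list below, the shares over all tested genes were 27.5% rising and 29.0% falling as deposited. After centring on T-cell markers these shares were 5.69% and 62.2%. Some falls on these lists were about as large as those of the ID8 markers (median -2.50), Rcan2, Fosl2, Rnf128, Ier3 and Klf4 among them. The part of ID8 RNA in such falls was not tested. Among the 6 paralogs, 4 were tested. Rcan2, another calcineurin inhibitor, fell from 12.3 ± 0.933 to 1.15 ± 0.354 FPKM (log2 fold change -3.35, limma adjusted p 1.8e-05), and Rcan3 stood at 8.30 and 7.58 FPKM (adjusted p 0.083). Tox4 rose by 0.19 on the log2 scale and fell after centring on T-cell markers (-0.33), while Nfat5, the NFAT relative that responds to salt and not to calcineurin, fell by 0.17. Tox3 and Nfatc4 were too low to test, at most 0.286 FPKM in mean.

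The calcium and calcineurin genes upstream of NFAT moved in both directions. Of 29 tested, 16 rose, 10 fell and 0 reached 2-fold, with a median log2 fold change of 0.22. After centring on T-cell markers 0 rose in limma, also at an unadjusted p under 0.05, and 22 fell. Of all tested genes 62.2% fell under that scaling, and the list's median was -0.31 beside -0.48 over all tested genes. The largest changes were falls. On the log2 scale they were -0.95 for Akap5, an anchor for calcineurin, -0.79 for both Fkbp1a, the target of tacrolimus, and Itpr3, a calcium channel of the endoplasmic reticulum, and -0.68 for Orai1, the pore of the store-operated calcium channel. Chosen after their values were seen, the calcineurin subunits differed as well. The catalytic subunit genes Ppp3cb and Ppp3cc each rose by 0.22 as deposited and fell after centring (-0.30 and -0.31), Ppp3ca stood at 0.12 (limma adjusted p 0.075), and the regulatory Ppp3r1 fell from 27.0 ± 1.57 to 20.97 ± 0.367 FPKM (-0.36).

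The partner factors moved in both directions. Of 15 tested, 6 rose and 9 fell, with a median of -0.33. Fosl2 went from 34.9 ± 1.90 to 6.19 ± 0.606 FPKM (log2 fold change -2.48, limma adjusted p 8.5e-07), and Fos (-1.64) and Maf (-1.08) fell as well. Named after its value was seen, Jun fell from 55.7 ± 2.85 to 29.6 ± 0.681 FPKM (-0.91). Irf4, which with BATF forms a complex on T-cell activation genes, rose from 15.6 ± 0.720 to 30.9 ± 0.546 FPKM (0.98), and Batf and Batf3, also named afterwards, rose by 0.97 and 0.94. These 3 rises passed after centring on T-cell markers too, at 0.46, 0.44 and 0.42. Some B-cell and myeloid markers also rose under that scaling, and the part of such cells in these rises was not tested.

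Genes that activated T cells induce through NFAT rose for the most part. Of 18 tested, 13 rose and 2 fell, with a median log2 fold change of 0.54 that became 0.03 after centring, when 5 rose and 3 fell. Over all tested genes 27.5% rose and 29.0% fell, and after centring 5.69% and 62.2%. The chemokine genes Ccl3, Xcl1 and Ccl4 rose by 1.98 (SE 0.27), 1.84 (SE 0.22) and 1.78 (SE 0.29), Ccl3 from 1.40 ± 0.234 to 6.03 ± 2.02 FPKM, and passed under both scalings. Ccl3 and Ccl4 are also made by myeloid cells, of whose 12 tested markers 9 rose, 2 fell (Mpeg1 and Cd14) and Cd68 did not pass. A pan T-cell isolation is meant to remove such cells, and their part in these rises was not tested. Csf2, the gene of GM-CSF, rose by 1.15 from 0.592 ± 0.195 to 1.40 ± 0.213 FPKM, with a limma adjusted p of 0.011 as deposited and 0.060 after centring. The 2 that fell, named afterwards, were Egr1 (-1.05) and Tnfrsf9 (-0.20). Il2 and Ifng were too low to test, at 0.0859 and 0.247 FPKM with PBS and 0.286 and 0.747 FPKM with cisplatin, and Il3 was listed at 0 in every library.

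Of the 10 anergy-linked genes, 4 rose and 2 fell, with a median of 0.08. The falls were large. Rnf128, which encodes the ubiquitin ligase GRAIL, went from 33.0 ± 0.576 to 4.79 ± 0.170 FPKM (log2 fold change -2.76), and Nedd4, another ubiquitin ligase, from 63.3 ± 0.920 to 18.9 ± 0.615 FPKM (-1.73). The ID8 markers fell by a similar amount (median -2.50), and the part of ID8 RNA in these falls was not tested. Ikzf1, which encodes Ikaros, rose by 0.76 and Dgka, a lipid kinase that limits receptor signalling, by 0.36. After centring 9 of the 10 genes fell, Dgka among them (-0.16), and Ikzf1 rose (0.23). The list's median was then -0.44, beside -0.48 over all tested genes, of which 62.2% fell.

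Of the 18 exhaustion-linked receptors and factors, 13 rose and 2 fell, with a median of 0.36, and after centring 3 rose and 7 fell. Among all tested genes 27.5% rose and 29.0% fell, and after centring 5.69% and 62.2%. Eomes, a T-box factor, rose by 1.05 (SE 0.12), Ikzf2, which encodes Helios, by 0.89 (SE 0.05), and both rose after centring too, by 0.56 and 0.37. Havcr2, which encodes TIM-3, rose by 0.85 from 1.03 ± 0.162 to 1.96 ± 0.446 FPKM, but did not pass after centring (0.36, limma adjusted p 0.19). Bhlhe40, a basic helix-loop-helix factor, fell from 91.1 ± 3.93 to 43.4 ± 0.369 FPKM (-1.07). The other that fell, named after its value was seen, was Cxcr6 (-0.16, limma adjusted p 0.033), which passed in 7 of 18 alternative settings and not with voom (adjusted p 0.41), with the replicate number as a block (0.063) or in 5 of the 6 fits with a library left out. Also named afterwards, Pdcd1, which encodes PD-1, rose by 0.57 with 0.06 after centring, and Lag3 stood at 49.0 and 48.6 FPKM.

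Of the 14 progenitor and memory-linked genes, 13 rose and 0 fell in limma, also at an unadjusted p under 0.05 and with voom, with a median of 0.62. Cxcr5 was the 1 that did not pass (0.17, adjusted p 0.058). Myb, a factor of self-renewing T cells, rose from 3.10 ± 0.295 to 10.5 ± 0.206 FPKM (1.73), Slamf6, which encodes the receptor Ly108, by 0.80, and Satb1, a chromatin organiser, by 0.72. After centring 6 of the list rose and 3 fell, beside 5.69% and 62.2% of all tested genes (27.5% and 29.0% as deposited). Myb was then at 1.21, Slamf6 at 0.28 and Satb1 at 0.20. Among the 13 CREB and immediate early genes, which like Nr4a1 respond quickly to stimulation, 2 rose and 6 fell, with a median of -0.19. Ier3 went from 216 ± 6.52 to 30.3 ± 2.06 FPKM (-2.83), and Klf4 (-2.43), Maff (-1.92) and Gadd45b (-1.09) fell. The 2 that rose, named afterwards, were Ier2, by 0.31, and Zfp36, by 0.33, and after centring all 13 fell, with a median of -0.71. Over all tested genes the median was then -0.48, and 62.2% fell.

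**Figure D4:**
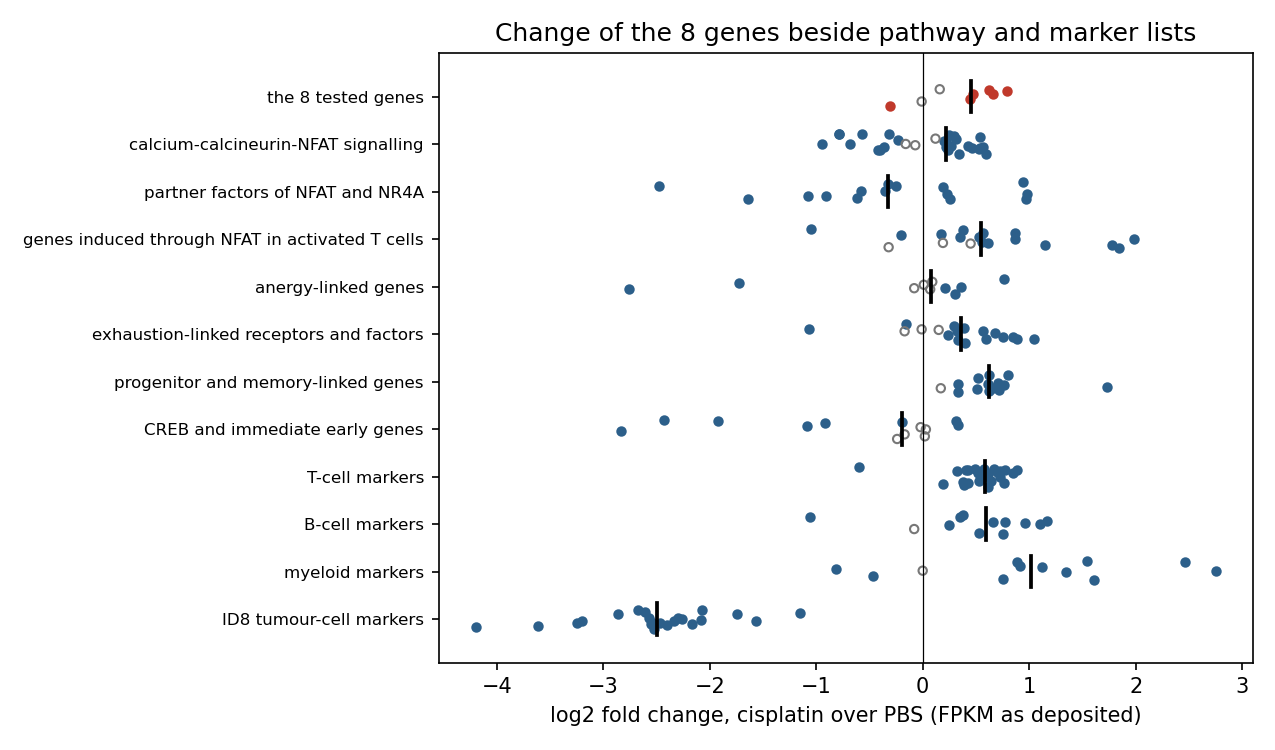
Log2 fold change (cisplatin over PBS, FPKM as deposited) of the 8 tested genes (top row) and of the tested genes of 7 context lists and 4 marker lists, with a vertical bar at each list's median. Filled points passed at a limma adjusted p under 0.05 and open points did not. The 8 genes had a median of 0.46, the T-cell markers 0.58 and the ID8 tumour-cell markers -2.50.

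For each tested gene the most similar profiles over the 6 libraries were sought among 7665 other protein-coding genes that averaged 5 FPKM or more, by the root mean square difference of centred log2 levels. These likenesses describe the libraries and share their depth and cell mixture. The closest to Nfatc2 was Klrd1 (0.00805), and to Nfatc1 Arhgef6 (0.0148), Nfatc3 Rbm15 (0.0155) and Nr4a2 Rnf44 (0.0105). Nr4a1 was closest to Rab11fip1 (0.0188), Nr4a3 to Rassf5 (0.0261), Tox to Amigo2 (0.0329) and Rcan1 to Tmem35b (0.0344). The second closest were Nckap1l for Nfatc2, Cyfip2 for Nfatc1, Gtf2h1 for Nfatc3, H2-T23 for Nr4a2, Cdc42bpg for Nr4a1, Pecam1 for Nr4a3, Cep85 for Tox and Pold4 for Rcan1.

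Of the 9 genes, 3 overlap genes on the opposite strand, and whether counting used the strand is not given in the sources used here. Nfatc3 shares 219 bases with Esrp2, an epithelial splicing factor that stood at 2.57 FPKM with PBS and 0.424 FPKM with cisplatin, and holds the small RNA gene Gm27956. Tox overlaps the antisense gene Gm11802, listed at 0 in the PBS libraries and at 0.110 FPKM with cisplatin. Rcan1 overlaps AC174448.1, at 0.30 and 0.26 FPKM. All of these stood at lower levels than the gene they overlap.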

How the data were processed

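RNA was sequenced from T cells in 6 libraries, 3 after co-culture with ID8 cells given cisplatin and 3 with ID8 cells given PBS, grouped and numbered by the sample labels. The authors deposited FPKM values per gene, that is counts divided by gene length and a library factor. The study's methods name LifeScope for alignment and counting and DESeq2 for testing on counts, whereas the submitters' processing notes name fastp, HISAT2 2.0.5, featureCounts 1.5.0-p3 and the build mm10. Strand and multi-mapping settings are not given in the sources used here. Replicates were not pooled and 0 columns belonged to other samples.

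Multiplied by gene length, the FPKM of each library were whole multiples of 1 step (100% of values within 0.1 of a whole read), which gave 30606569 to 32169496 reads on genes per library. These reads cover counting error only. The divisor behind FPKM was 0.976 to 0.982 of these reads in the PBS libraries and 1.03 to 1.05 in the cisplatin libraries. It thus lowered the cisplatin values relative to PBS. With FPKM rescaled to these reads, the median log2 fold change over all tested genes was 0.11 in place of 0.03. Libraries of a group held no identical values and differed by more than counting noise (chi-square per degree of freedom 5.36 to 6.44).

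log2(FPKM + 0.1) was fitted with limma 3.58.1 in R 4.3.3 (lmFit, eBayes with trend) for the 15874 genes that averaged 0.5 FPKM or more, out of 33456 with a read in any library. p-values were adjusted by Benjamini-Hochberg over all tested genes. Rose and fell mean an adjusted p under 0.05, and 2-fold calls also need a log2 fold change of 1 or more in size. Ratios within a library were compared by two-sided exact permutation tests. Fold changes on this scale understate those of genes near 0.1 FPKM. Count models were not run on the FPKM, and limma's voom on the rebuilt reads took their place as an alternative. Other alternatives were the pseudocount (1 and 0.01), the minimum FPKM (none and 5), the scaling between libraries (median of ratios, quantile, T-cell markers, TPM), no trend, each library left out, the replicate number as a block, and, chosen after seeing the data, FPKM rescaled to the rebuilt reads. The main fit was tested on simulated reads in which a small part of the genes changed by more than 2-fold. Smaller changes and a shift in the cell mixture were not part of that test.

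The genes and gene lists were chosen with earlier results of these data known. Named were all 9 genes, up to 4 genes of each context list with the largest absolute change among those passing, up to 3 of each marker list with the highest mean, and the 2 nearest profiles of each tested gene, and other names are marked as chosen afterwards. A gene of the context lists that this rule takes is not reported here by name. Start windows came from RefSeq on GRCm38.p6, the assembly of mm10. No protein sequences, no start window of Tox and no sequence of Nfatc1 were used here. The other software was matplotlib 3.10.9 for the figures and scipy 1.17.1, pandas 2.3.3 and numpy 2.4.6 in python 3.11.15 for the rest.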

Additional observations from a re-analysis of the deposited data

How the results depend on the processing

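As deposited, 653 genes were called higher and 2034 lower at 2-fold (75.7% lower). Centring on T-cell markers gave 169 and 3388 (95.2% lower), quantile normalization 979 and 1790 (64.6% lower), a minimum of 5 FPKM 242 and 903, a pseudocount of 1 gave 311 higher, and voom on the rebuilt reads 1128 higher. Leaving out 1 library gave 570 to 693 higher and 1907 to 2083 lower. Of the 9 genes, 8 were tested in the main fit. Of these 5 rose and 1 fell, beside 27.5% and 29.0% of all tested genes. With a minimum of 5 FPKM 3 rose, fewer genes being tested. After centring on T-cell markers 0 rose and 3 fell, beside 5.69% and 62.2% of all tested genes. None fell after quantile normalization, with voom or without PBS replicate 2 (0 to 1 over the libraries left out, and 5 to 6 rose). Of the context-list genes, 68 rose and 33 fell (63 to 69 and 32 to 33 with 1 library left out), and 18 and 73 after centring.

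Centring moved the log2 fold changes of Nr4a1 to -0.52, Nr4a2 to -0.34, Nr4a3 to 0.16, Nfatc1 to 0.10, Nfatc2 to -0.05, Nfatc3 to -0.08 and Tox to 0.29. Nr4a2 passed at 0.36 after quantile normalization, 0.16 without trend and 0.24 (adjusted p 0.047) with FPKM rescaled to the rebuilt reads, which was chosen after seeing the data. Rcan1 did not pass at -0.13 after quantile normalization or -0.23 with voom, and ranged from -0.38 to -0.26 with 1 library left out, with limma adjusted p from 0.0054 to 0.051. Tox2 was tested without the minimum (1.56), with voom (2.15) and with 1 of PBS libraries 2 and 3 left out (1.23 to 1.65). The log2 ratio of Nfatc2 to Nfatc3 changed by 0.03, and by 0.00 with the opposite sign at a pseudocount of 1. Beyond what the settings' construction shows, the cause was not tested.

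Replicate numbers did not pair the libraries. Same-numbered libraries had correlations of 0.023, -0.063 and -0.021 between their deviations from the group means. With the replicate number as a block 651 genes were called higher and 2011 lower, and no call among the 9 genes changed. Tox2, with 8 to 30 reads per PBS library, is the gene that depth limits most. Exact tests of 3 against 3 libraries cannot go below 0.1, so the ratios within families could not pass in any setting.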
